A study of Mus musculus with 4 samples.

Results

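Fc receptors, the proteins by which macrophages bind the constant part of antibodies, were described here through 6 genes: Fcgr1, Fcgr3 and Fcgr4, Fcgr2b, Fcer1g and Fcgrt. The genes were listed by name, with earlier results of these data known, out of 23259 symbols with a value. All 6 were among the 10115 genes tested, which averaged 1 FPKM or more over the libraries (fragments scaled to transcript length and library size). The cells were bone marrow-derived macrophages of C57BL/6 mice aged 7 weeks, kept for 24 h with IL-4, the cytokine used to drive alternative activation. There were 2 libraries with the genotype label wild type and 2 with the label Sema6D-/-, which names the loss of the transmembrane semaphorin Sema6D, and IL-4 was common to both groups. Whether the 2 libraries of a group came from separate mice or cultures is not stated, so p-values reflect the spread among these 4 libraries, which may be technical.

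Activating Fc receptors (Fcgr1, Fcgr3 and Fcgr4) bind IgG and signal through the common gamma chain encoded by Fcer1g, whose cytoplasmic tail carries an immunoreceptor tyrosine-based activation motif (ITAM) that is phosphorylated by Src family kinases and recruits Syk. Fcgr2b carries an inhibitory motif (ITIM) in its own tail, which recruits the phosphatase encoded by Inpp5d, and the balance of activating and inhibitory receptors sets the threshold at which immune complexes trigger phagocytosis and cytokine release. Fcgrt encodes the heavy chain of the neonatal receptor FcRn, which pairs with beta-2 microglobulin and returns IgG from endosomes to the cell surface, sparing it from lysosomes.

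The targeted gene did not separate the labels. In the wild type-labelled libraries Sema6d was at 0.166 and 0.389 FPKM, against 0.106 and 0.315 FPKM in those labelled Sema6D-/-. The groups overlapped, the gene lay under the minimum for testing, and without that minimum the difference was -0.08 ± 0.13 (SE, log2(FPKM + 1), limma, adjusted p = 0.788). Titles of the wild type-labelled samples begin with K and those of the Sema6D-/- samples with W, and every direction below therefore refers to the genotype label. The values of Sema6d do not show whether the labels were exchanged, and if they were, every direction relative to loss of Sema6D would reverse (the Fcgr4 fold of 1.83 would read 0.548). Estimated depth was 9000000 and 9200000 fragments in the wild type-labelled libraries and 8200000 and 8300000 in the others. Pearson's r of log2(FPKM + 1) over all 23259 symbols with a value, many of them at or near 0, was 0.992 and 0.991 within labels. Between labels it was 0.986 to 0.988.

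The 2 signalling motifs that set the receptors apart are short stretches of coding sequence, read from GENCODE transcripts on GRCm38. They are shown because the contrast of activating and inhibitory receptors rests on them. Capitals mark the codons of the tyrosines that are phosphorylated. The Fcer1g stretch spans coding bases 178 to 252 of 261 and contains the motif, residues 65 to 79 of a chain of 86 residues. The Fcgr2b stretch spans coding bases 934 to 981 of 1023 and contains the motif, residues 317 to 322 of a protein of 340 residues.
Fcer1g ITAM: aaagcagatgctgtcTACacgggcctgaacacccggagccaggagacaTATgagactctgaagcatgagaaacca
Fcgr2b ITIM: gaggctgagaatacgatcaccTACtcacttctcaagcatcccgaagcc
The ITAM pattern was found in no other of the 6 proteins. The ITIM pattern is short and also matched elsewhere in Fcgr1, Fcgr4, Fcer1g and Fcgrt, so that a match by itself marks no working site.

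Fcgr2b and Fcgr3 are close relatives, and this bears on how far their values can be told apart. Their coding sequences were identical at 87.1% of 785 aligned bases, against 64.0% to 68.7% for the other pairs of IgG receptors. The longest stretch without a difference was 129 bases, starting at coding base 278 of Fcgr2b and 263 of Fcgr3, and encodes part of the extracellular domains.
Fcgr2b and Fcgr3, shared: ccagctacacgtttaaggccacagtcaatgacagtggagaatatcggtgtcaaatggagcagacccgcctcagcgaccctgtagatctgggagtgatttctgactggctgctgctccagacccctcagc
Of all stretches of 50 bases in the Fcgr3 transcript, 12.8% also occurred in Fcgr2b, and those made up 4.75% of the Fcgr2b transcript. Counting every other gene, 11.4% of the Fcgr2b stretches were shared, with Olfr1039 and Ntrk3 next after Fcgr3. Fcgr1, Fcgr4, Fcer1g and Fcgrt shared no stretch of 50 bases with another gene. How reads that map to both genes were divided is not given in the sources used here, so the levels of Fcgr2b and Fcgr3 carry an uncertainty that the spread between libraries does not show.

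Among the 6 genes, Fcgr4, Fcgr3 and Fcgrt were higher in the libraries labelled Sema6D-/-, by 1.83, 1.23 and 1.33-fold in mean FPKM. Fcgr1 had a lower mean and Fcer1g a higher mean under that label, and neither passed the threshold of an adjusted p of 0.05. Fcgr2b overlapped between labels. The 3 of 6 genes that passed stand against 9.72% of all tested genes called in either direction, 4.8% called higher and 4.91% called lower. The groups did not overlap for 5 of the 6 genes, which was also true of 56.2% of all tested genes. The median difference of the 6 genes was 0.27 on the log2(FPKM + 1) scale, against 0.00287 for all tested genes.

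**Figure D1:**
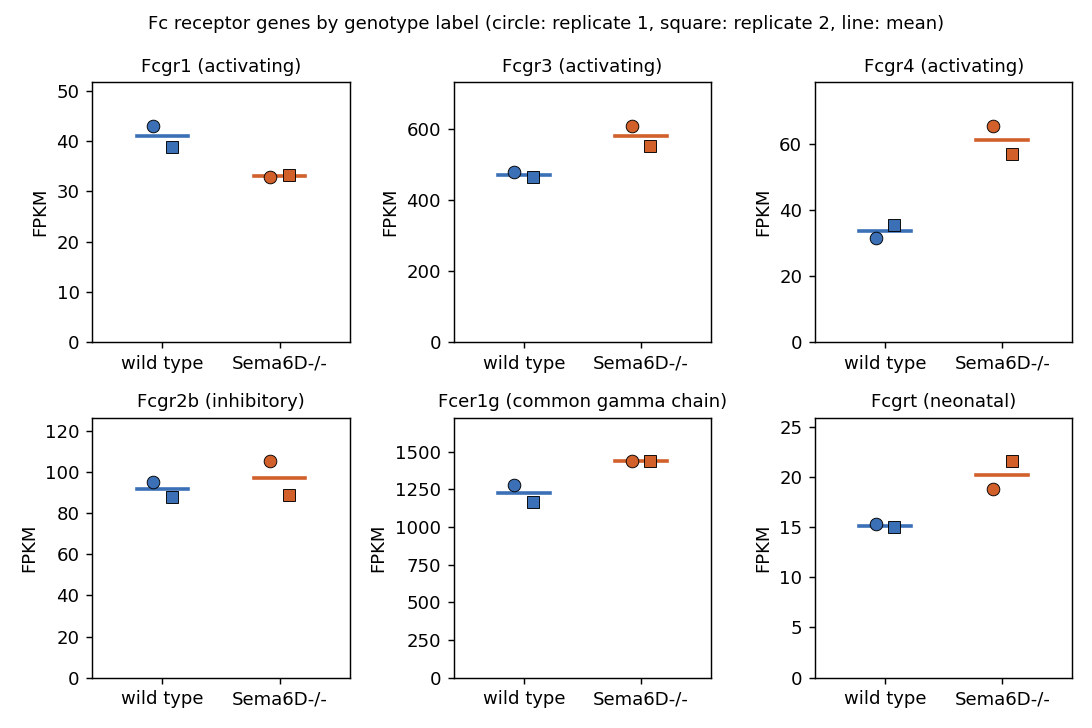
FPKM of each Fc receptor gene (vertical axes, from 0) in the libraries labelled wild type and Sema6D-/-, with circles for replicate 1, squares for replicate 2 and lines for means. Fcgr4 rises from 31.5 and 35.5 to 65.4 and 56.8 FPKM, while the points of Fcgr2b overlap between labels.

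Markers of other cells moved with the labels, and Fcgr3, Fcgr4 and Fcer1g are also made by neutrophils. Summed FPKM of 11 neutrophil genes was 241 and 227 under the label wild type and 778 and 635 under the label Sema6D-/-. Of 10 tested, 6 were higher and 1, Csf3r, was lower, and none of the 11 was listed at 0 in every library. Summed FPKM of 11 macrophage genes was 6064 and 5790, then 5493 and 5494, and of 9 tested, 1 (Adgre1, listed as Emr1) was higher and 3 (Itgam, Lyz2 and Cd14) were lower. Summed FPKM was 0.214 to 1.15 for 5 B cell genes, with Pax5 listed at 0 in every library, and for 6 NK cell genes it was 0.138 and 0.122, then 0.651 and 0.662, with Ncr1 and Klrd1 listed at 0. For 8 mast cell and basophil genes it was 2.07 and 1.56, then 4.66 and 3.87, with Tpsb2 and Cma1 listed at 0, and the 1 tested, Mcpt8, was higher. For 5 eosinophil genes it was 15.4 and 17.8, then 23.0 and 18.4, and of 3 tested, Prg2 and Ccr3 were higher and Siglecf, listed as Siglec5, was lower. For 8 dendritic cell genes it was 444 and 453, then 344 and 366, and of 3 tested, Itgax was lower. T cell genes summed to 1.41 to 1.78 FPKM and endothelial genes to 1.18 to 1.46 FPKM. The part of cells other than macrophages in the Fc receptor differences was not tested, and in bulk RNA fewer cells of a type and less RNA per cell cannot be told apart.

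Levels per transcript length spanned a wide range. Fcer1g stood at rank 41 to 50 of all symbols in each library, and Fcgr3 at rank 92 to 128. Fcgr2b followed at rank 718 to 868 and Fcgrt was the lowest of the 6, at rank 3492 to 4575. In every library the order was Fcer1g, Fcgr3, Fcgr2b, then Fcgr1 and Fcgr4, then Fcgrt. Fcgr1 and Fcgr4 were the only neighbours in that order whose values overlapped across the 4 libraries, at 32.9 to 43.0 FPKM for Fcgr1 and 31.5 to 65.4 FPKM for Fcgr4. Under the label wild type Fcgr1 was above Fcgr4 in both libraries, and under the label Sema6D-/- Fcgr4 was above Fcgr1 in both.

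Fcgr4, the mouse receptor for IgG2a and IgG2b (chr1:171018926-171029761, plus strand, GRCm38), was at 31.5 and 35.5 FPKM in the wild type-labelled libraries and at 65.4 and 56.8 FPKM in the Sema6D-/- ones. Both libraries labelled Sema6D-/- were above both labelled wild type. The means were 33.5 ± 2.8 and 61.1 ± 6.1 FPKM (SD, n = 2 each), and the difference was 0.85 ± 0.092 (SE, log2(FPKM + 1), limma, adjusted p = 0.00773), with a 95% interval of 0.62 to 1.08. By p-value the gene stood at rank 202 of the 10115 tested. It passed the threshold in 12 of 13 alternative analyses and did not without replicate 1 labelled Sema6D-/- (adjusted p = 0.0646). Its coding length held an estimated 211 to 402 fragments per library, for a counting error of 5.0% to 6.9%.

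Fcgr3, the most abundant IgG receptor in these cells (chr1:171051169-171065915, minus strand), was at 478 and 463 FPKM in the wild type-labelled libraries and at 609 and 551 FPKM in the Sema6D-/- ones. Both libraries labelled Sema6D-/- were the higher ones. The difference was 0.30 ± 0.061 (SE, log2(FPKM + 1), limma, adjusted p = 0.0423), with a 95% interval of 0.14 to 0.45. The gene did not pass the threshold in any of the 4 fits that left out 1 library (adjusted p from 0.0833 to 0.197), nor with the replicate number as a block (adjusted p = 0.0562), and its direction held in all 13 alternatives.

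Fcgr1, the high-affinity receptor that binds monomeric IgG2a (chr3:96282909-96293969, minus strand), was at 43.0 and 38.8 FPKM in the wild type-labelled libraries and at 32.9 and 33.3 FPKM in the Sema6D-/- ones. Both libraries labelled Sema6D-/- were below both labelled wild type, which is the opposite of the order in Fcgr3 and Fcgr4. The difference was -0.30 ± 0.065 (SE, log2(FPKM + 1), limma, adjusted p = 0.0518), with a 95% interval of -0.46 to -0.13. It passed the threshold in 4 of 13 alternatives, among them the fit without replicate 2 labelled wild type (adjusted p = 0.0477) and the fit with robust variance estimation (adjusted p = 0.035).

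Fcgr2b, the inhibitory receptor (chr1:170960558-170976071, minus strand), was at 95.2 and 87.9 FPKM in the wild type-labelled libraries and at 105 and 88.9 FPKM in the Sema6D-/- ones. The groups overlapped, and replicate 1 labelled Sema6D-/- was the highest. The difference was 0.08 ± 0.091 (SE, log2(FPKM + 1), limma, adjusted p = 0.646). Its 95% interval ran from 0.902 to 1.24-fold on that scale, so that changes beyond those bounds lie outside it and smaller ones in either direction were not resolved. Without replicate 1 labelled Sema6D-/- the difference was -0.041.

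Fcer1g, the common gamma chain (chr1:171229572-171234349, minus strand), was at 1279 and 1167 FPKM in the wild type-labelled libraries and at 1437 and 1439 FPKM in the Sema6D-/- ones. Both libraries labelled Sema6D-/- were the higher ones. The difference was 0.23 ± 0.059 (SE, log2(FPKM + 1), limma, adjusted p = 0.0734), with a 95% interval of 0.09 to 0.38. It was 0.10 after quantile normalization of the libraries, and it passed the threshold in 1 of 13 alternatives, that with robust variance estimation (adjusted p = 0.0389).

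Fcgrt, the neonatal receptor (chr7:45092993-45103822, minus strand), was at 15.3 and 14.97 FPKM in the wild type-labelled libraries and at 18.8 and 21.6 FPKM in the Sema6D-/- ones. The groups did not overlap, and the spread was wider under the label Sema6D-/- (20.2 ± 2.0 FPKM against 15.1 ± 0.24, SD, n = 2 each). The difference was 0.39 ± 0.082 (SE, log2(FPKM + 1), limma, adjusted p = 0.0456), with a 95% interval of 0.18 to 0.59. It did not pass the threshold in any fit that left out 1 library (adjusted p from 0.099 to 0.192) or with the replicate number as a block (adjusted p = 0.0735). An estimated 151 to 197 fragments fell on its coding length, for a counting error of 7.1% to 8.2%.

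**Figure D2:**
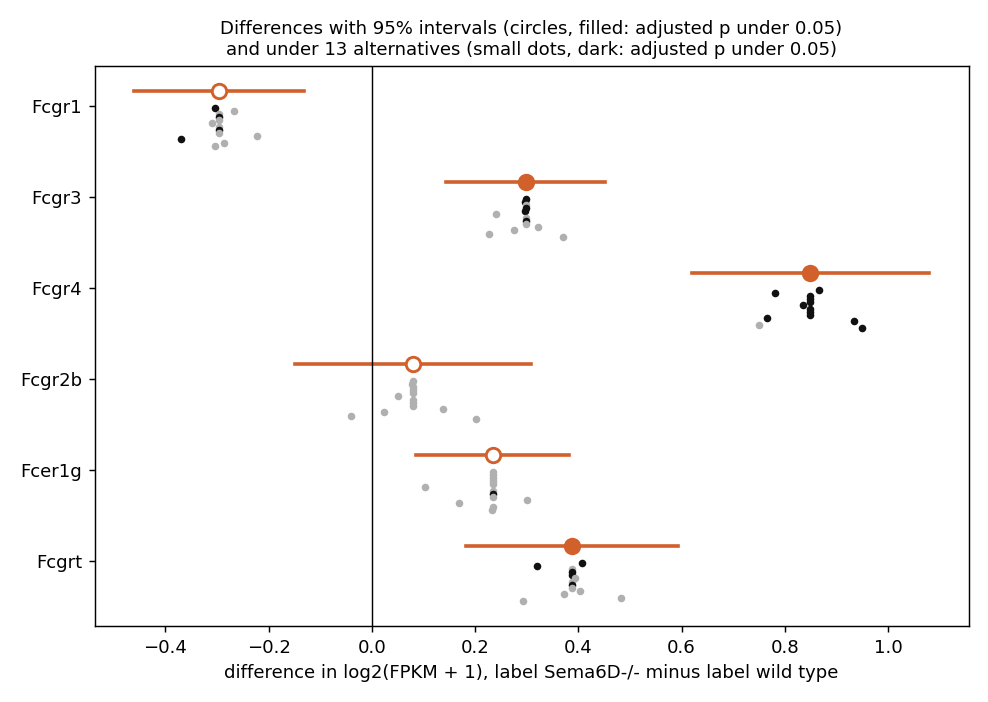
Difference in log2(FPKM + 1), label Sema6D-/- minus label wild type (horizontal axis), for each gene, with large circles and lines for the value and its 95% interval, filled where the adjusted p was under 0.05, and small dots for 13 alternative analyses, dark where the adjusted p was under 0.05. The Fcgr4 dots lie between 0.749 and 0.949 and 12 of 13 are dark, whereas 5 of 13 are dark for Fcgr3 and for Fcgrt.

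The share of each receptor in the IgG receptor transcripts is given as a description, without a test. Of the summed FPKM of Fcgr1, Fcgr2b, Fcgr3 and Fcgr4, Fcgr4 made up 4.86% and 5.67% under the label wild type and 8.06% and 7.79% under the label Sema6D-/-. Fcgr1 made up 6.64% and 6.20%, then 4.05% and 4.56%, and Fcgr2b 14.7% and 14.1%, then 12.96% and 12.2%. Fcgr3 made up 73.8% and 74.1%, then 74.9% and 75.5%. The groups did not overlap for any of the 4 genes, and the FPKM of 56.2% of all tested genes did not overlap either. The 4 shares of a library are parts of the same sum, so they do not vary independently.

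Ratios taken within a library do not depend on how whole libraries are scaled, and they are given as values without a p. Fcgr4 to Fcgr2b was 0.331 and 0.404 under the label wild type and 0.622 and 0.639 under the label Sema6D-/-. Fcgr3 to Fcgr2b was 5.03 and 5.27, then 5.78 and 6.20. Fcgr1 to Fcgr2b went the other way, at 0.452 and 0.441, then 0.312 and 0.375. None of these 3 ratios overlapped between labels, as was true of the FPKM of 56.2% of all tested genes. All 3 have Fcgr2b as the denominator and so are not independent. The sum of the 3 activating receptors over Fcgr2b was 5.81 and 6.11, then 6.72 and 7.21, also without overlap, and Fcgr3 makes up most of that sum. The same sum over Fcer1g, the chain they share, was 0.432 and 0.460, then 0.492 and 0.445, and overlapped. The ratio of Fcgr4 to Fcgr1, chosen after the values were seen, was 0.731 and 0.915, then 1.99 and 1.71.

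**Figure D3:**
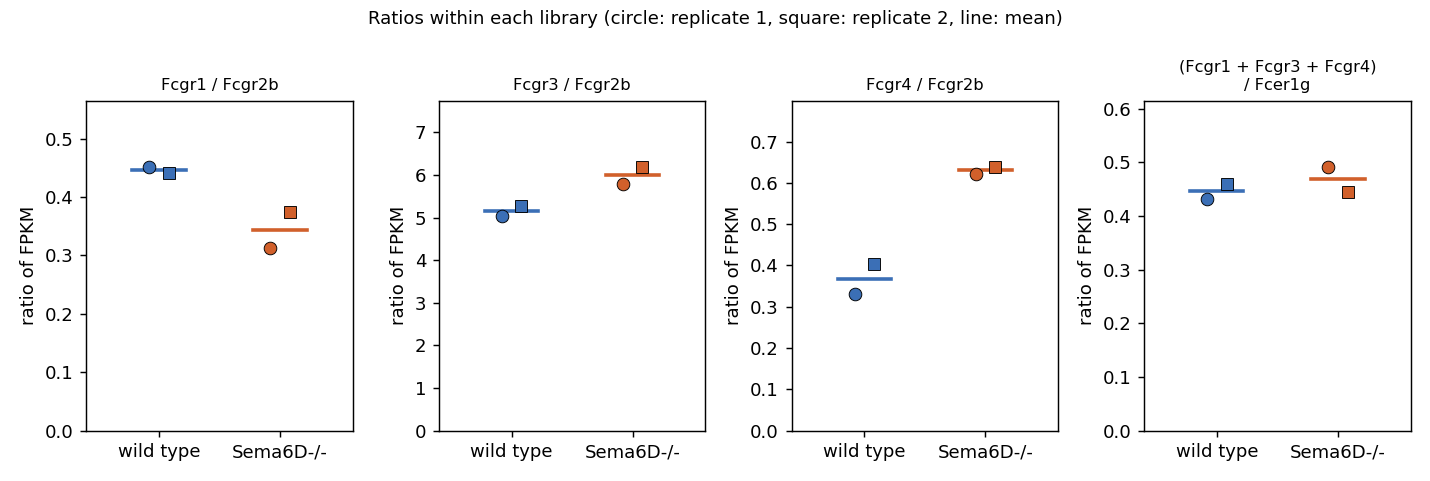
Ratios of FPKM within each library (vertical axes, from 0) for the 2 labels, with circles for replicate 1, squares for replicate 2 and lines for means. Fcgr1 to Fcgr2b is lower and Fcgr3 and Fcgr4 to Fcgr2b are higher under the label Sema6D-/-, while the sum of activating receptors to Fcer1g overlaps.

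The means of Fcgr1 and Fcgr4 lay on opposite sides, Fcgr1 without passing the threshold, and their promoters are shown for that reason, as the 250 bases before the RefSeq start on GRCm38.p6, in the direction of transcription. Capitals mark matches to motifs searched on both strands. The 5 motifs below were chosen with these sequences in view: TTCNNNGAA (bound by STAT dimers), TTC and GAA with any 4 bases between (the spacing preferred by STAT6, which IL-4 activates), GAAA and GAAA with any 2 bases between (the core of the interferon-stimulated response element, ISRE), GAGGAA (the core bound by PU.1) and TATAAA.
Fcgr1, chr3:96293970-96294219, minus strand: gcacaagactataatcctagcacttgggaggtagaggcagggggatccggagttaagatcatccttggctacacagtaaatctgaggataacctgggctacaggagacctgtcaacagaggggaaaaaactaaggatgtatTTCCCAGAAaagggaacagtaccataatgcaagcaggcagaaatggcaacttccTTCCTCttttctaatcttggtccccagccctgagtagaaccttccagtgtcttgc
Fcgr4, chr1:171018676-171018925, plus strand: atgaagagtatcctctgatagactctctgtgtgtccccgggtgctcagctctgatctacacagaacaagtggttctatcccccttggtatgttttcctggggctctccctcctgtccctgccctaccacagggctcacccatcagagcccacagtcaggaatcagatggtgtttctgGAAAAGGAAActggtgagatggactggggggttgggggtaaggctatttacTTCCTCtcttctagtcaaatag
The Fcgr1 promoter held TTCNNNGAA, with its first base 109 bases before the start, and the reverse of GAGGAA 55 bases before it. The Fcgr4 promoter held the ISRE core 73 bases and the reverse of GAGGAA 22 bases before the start. No marked match overlapped another. Over 27025 RefSeq promoters cut to the same length, TTCNNNGAA was found in 7.18%, the ISRE core in 3.04% and GAGGAA in 23.1%. The STAT6 spacing (5.86%) and TATAAA (13%) were found in none of the 6 windows, and the Fcgr3 window held only GAGGAA. That Fcgr3 window, chr1:171059404-171059653, lay inside the span given above for the gene (chr1:171051169-171065915). It precedes an internal start, and the bases before the outer start of Fcgr3 were not searched. For the other genes the window adjoins the end of the span. The windows of Fcgr2b, Fcer1g and Fcgrt held none of these letters.

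Fcgr2b, Fcgr4, Fcgr3 and Fcer1g lie in 1 cluster on chromosome 1. Within 250 kb of it, 26 other genes had a value and 19 were tested. None of the 19 passed in either direction (limma), 1 was higher and 4 were lower at an unadjusted p under 0.05, and their median difference was -0.12. Atf6, a transcription factor of the unfolded protein response, had the smallest p of them (19.5 and 17.9, then 23.9 and 22.8 FPKM, adjusted p = 0.0515) and was the 1 that passed with robust variance estimation. Near Fcgr1, 1 of 8 tested genes passed, the histone gene Hist2h3c1, which was higher (3.48 and 3.10, then 6.33 and 5.58 FPKM, adjusted p = 0.0198). Near Fcgrt, none of 24 tested genes passed (limma), 1 was higher and 2 were lower at an unadjusted p under 0.05, and with robust variance estimation only Rpl13a passed.

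**Figure D4:**
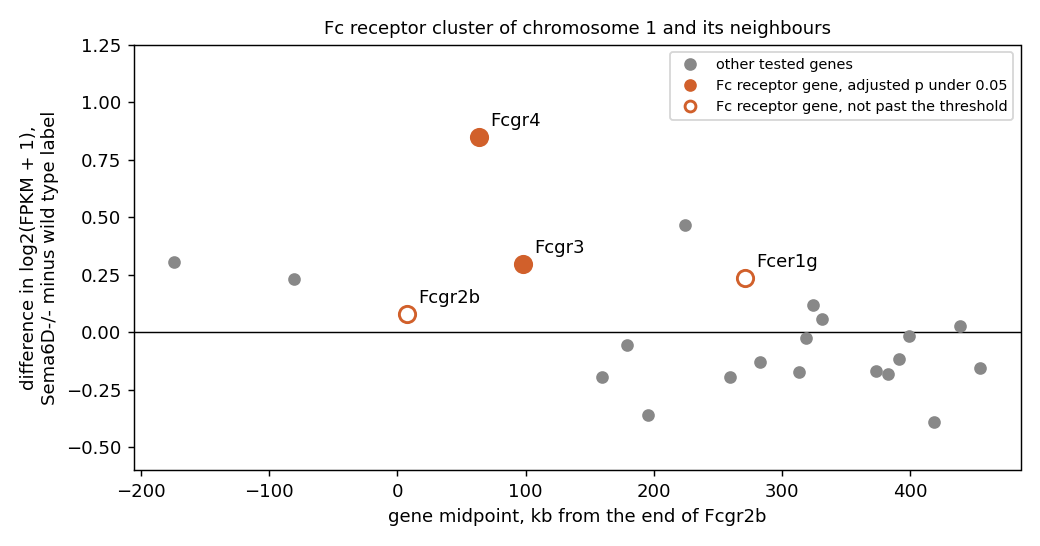
Difference in log2(FPKM + 1), label Sema6D-/- minus label wild type (vertical axis), against gene midpoint in kb from the end of Fcgr2b (horizontal axis), for the 4 Fc receptor genes of the cluster and 19 tested neighbours in grey. Fcgr4 lies above all the others at 0.85, and the neighbours range from -0.39 to 0.47.

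The genes whose pattern over the 4 libraries was nearest to that of a called receptor were found among the 7687 genes averaging 5 FPKM or more, by the Euclidean distance of mean-centred log2(FPKM + 1). For Fcgr4 they were Slc9a9 (distance 0.072), Pitpnc1 (0.0878) and Gpx3 (0.129). For Fcgr3 they were Hs6st1 (0.0178), Rps6kc1 (0.0191) and Tmem106a (0.0267). For Fcgrt they were Srxn1 (0.0188), Ddit3 (0.0214) and Srgn (0.0257). With 4 libraries, many genes lie close to any given pattern.

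The other genes of the pathway were taken from 7 lists, in which 127 genes were tested, 11 were higher and 22 lower under the label Sema6D-/-. These counts and those of each list below are to be read against the 4.8% of all tested genes called higher and the 4.91% called lower. Among other Fc-binding genes, 14 had a value, 3 were tested and 6 were listed at 0 in every library. Fcrls, an Fc receptor-like gene of myeloid cells, was higher (76.3 and 73.0, then 99.6 and 95.05 FPKM, adjusted p = 0.0134). Trim21, the cytosolic antibody receptor, was named after its values were seen, at 14.6 and 15.7, then 15.1 and 15.2 FPKM (adjusted p = 0.984). Fcer1a, the IgE-binding chain of the mast cell receptor, was at 0.123 FPKM in 1 library and listed at 0 in the other 3.

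Among ITAM adaptors and receptors that pair with the gamma chain, 1 of 9 tested genes was higher and 5 were lower, with a median of -1.15. Tyrobp, the adaptor DAP12, was the higher one (2758 and 2884, then 3417 and 3334 FPKM, adjusted p = 0.0429). Clec4e, which encodes Mincle, fell from 8.23 and 8.34 to 0.809 and 0.551 FPKM (adjusted p = 0.00097). Clec4n, which encodes Dectin-2, fell from 16.1 and 18.0 to 0.941 and 2.25 FPKM (adjusted p = 0.00436). Pira6 (32.3 and 33.9, then 5.77 and 6.10 FPKM), Pira11 and Pira4 were lower as well. The Pira genes are near-identical paired immunoglobulin-like receptors, and reads may have been split among them.

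In activating signalling, 2 of 30 tested genes were higher and 4 lower, with a median of -0.03. The Src family kinase genes Src and Fgr fell, Src from 14.5 and 13.5 to 5.77 and 5.74 FPKM (adjusted p = 0.00203) and Fgr from 8.18 and 8.53 to 3.16 and 3.15 FPKM (adjusted p = 0.00275). Prkcd, a protein kinase C, and the adaptor Lat were also lower. Vav2 (8.82 and 8.86, then 12.3 and 12.4 FPKM) and Vav3 (15.5 and 15.7, then 20.6 and 20.4 FPKM), exchange factors for small GTPases, were the higher ones. Syk, the kinase that binds the phosphorylated ITAM and was named after its values were seen, was at 76.9 and 78.7, then 82.0 and 79.7 FPKM (adjusted p = 0.513).

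In inhibitory signalling, 1 of 16 tested genes was higher and 3 lower. Dok2, an adaptor that restrains Ras signalling, rose from 49.5 and 47.0 to 124 and 127 FPKM (adjusted p = 0.000336). Inppl1, the phosphatase SHIP2, was lower (90.9 and 84.4, then 65.4 and 66.8 FPKM), as were Cd72 and Ptpn6, the phosphatase SHP-1. Inpp5d, the phosphatase SHIP1 recruited by Fcgr2b and named after its values were seen, was at 41.6 and 41.8, then 41.4 and 42.3 FPKM (adjusted p = 0.971).

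Of 33 tested genes of the phagocytic cup, 3 were higher (Lcp1, Myo1e and Gsn) and 2 lower (Rac2 and Dock8). Rac2, the small GTPase of blood cells, fell from 165 and 152 to 117 and 111 FPKM (adjusted p = 0.0109). Of 15 tested genes of neonatal receptor traffic and class I assembly, none was higher (limma; 1 at an unadjusted p under 0.05) and 2 were lower, the peptide transporter gene Tap1 (48.8 and 45.7, then 28.1 and 30.0 FPKM, adjusted p = 0.00497) and Tapbp. B2m, the light chain of FcRn, was named after its values were seen. It was at 7509 and 7479, then 7130 and 7799 FPKM, with overlap (adjusted p = 0.963).

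Among 21 regulators of Fc receptor transcription, 3 were higher and 6 lower. Stat2, a transducer of interferon signals, was lower (50.6 and 51.7, then 22.4 and 29.3 FPKM, adjusted p = 0.0119), as were Jak2 and Tgfbr2. Irf1 (79.7 and 76.4, then 96.9 and 92.9 FPKM, adjusted p = 0.0284) and C5ar1 (114 and 104, then 149 and 142 FPKM, adjusted p = 0.0186), the receptor for the complement fragment C5a, were higher. Stat6, which carries the IL-4 signal and was named after its values were seen, was at 79.9 and 80.0, then 80.8 and 80.3 FPKM (adjusted p = 0.906). Ifngr2 and Irf9 were lower and Irf8 was higher, and these 3 were named after their values were seen.

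The pathway calls differed in how far they rested on single libraries. Clec4e, Clec4n, Pira6, Pira11, Src, Fgr, Dok2 and Stat2 passed in each of the 4 fits that left out 1 library. Without replicate 1 labelled Sema6D-/- the calls of Tap1 (adjusted p = 0.0558) and Pira4 (0.0606) were lost, and both genes passed in the fits that left out any other library. The calls of Fcrls (0.113 and 0.0743), Rac2 (0.0817 and 0.0875), Inppl1 (0.118 and 0.0929), C5ar1 (0.146 and 0.1) and Tgfbr2 (0.168 and 0.169) were lost without either Sema6D-/- library, these being adjusted p without replicate 1 and without replicate 2. Tyrobp, Vav2, Vav3, Lat, Cd72, Ptpn6, Gsn, Dock8, Irf1, Irf8 and Ifngr2 passed in none of the 4 fits, and Prkcd, Lcp1, Myo1e, Tapbp, Jak2, Irf9 and the Fcgr1 neighbour Hist2h3c1 in 1 each.

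**Figure D5:**
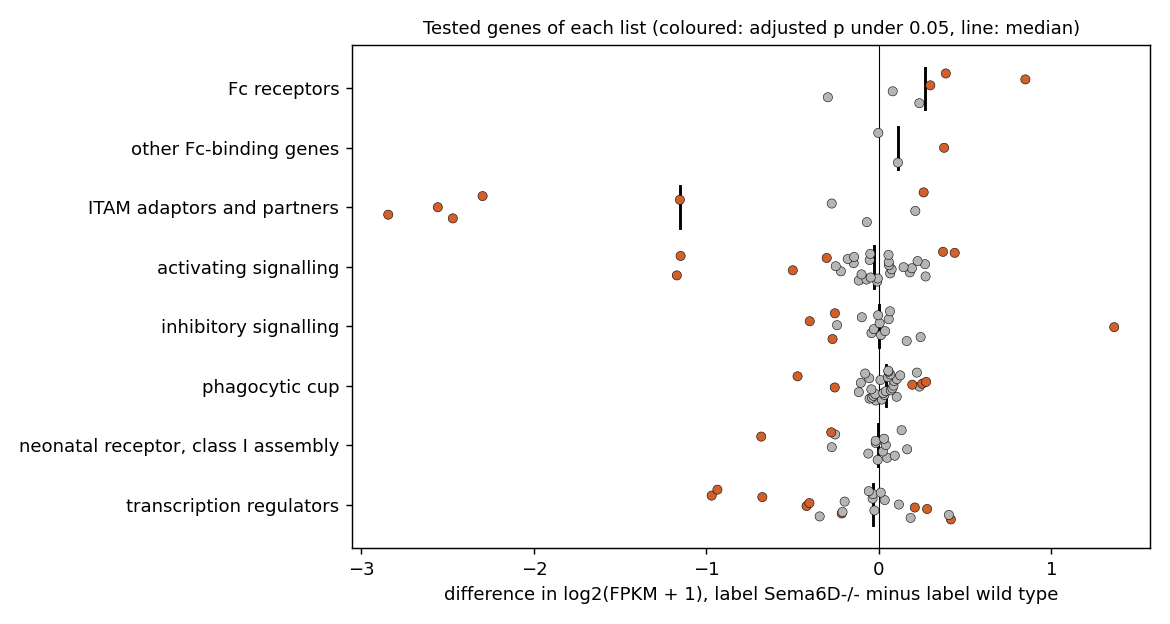
Difference in log2(FPKM + 1), label Sema6D-/- minus label wild type (horizontal axis), of every tested gene in the Fc receptor list and 7 pathway lists, coloured where the adjusted p was under 0.05, with a line at each median. The Fc receptor median lies at 0.27 and that of the ITAM adaptors and gamma chain partners at -1.15, while the 5 lower lists have medians between -0.04 and 0.04.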

How the data were processed

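Each library was deposited as 1 list of gene symbols with FPKM values, which the authors made with TopHat2 2.0.13, Bowtie2 2.2.3, SAMtools 0.1.19 and Cuffnorm 2.2.1 on mm10, per the submitters' processing notes. Libraries were strand-specific (Agilent SureSelect), per the labels' protocols. For the gene annotation, the strand setting and the handling of multi-mapped reads, the sources used here give nothing. Of 23284 symbols, 25 had no value. An exact 0 can be a failed estimate. Depth is an estimate from the steps between low FPKM values and GENCODE exon lengths, and errors from it cover counting only. Of the low values used for it, 38.8% to 42.2% per library lay near 1 fragment. Fragments were estimated on the coding length, which is part of the transcript (750 of 1256 bases for Fcgr4, 1098 of 1770 for Fcgrt). Over whole transcripts the fragments would be more and the counting errors smaller.

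Values were compared as log2(FPKM + 1), which understates the change of low genes, with limma 3.58.1 in R 4.3.3 (lmFit, eBayes with trend, two-sided) on the 10115 genes averaging 1 FPKM or more, with Benjamini-Hochberg adjustment over all of them. The procedure was tested on simulated data. The named genes are the 6 receptors, Sema6d, up to 6 called genes per list by smallest p, the 3 nearest genes per called receptor, and up to 6 neighbours within 250 kb. Not every gene that this rule names is reported here. Members and lists were chosen with earlier results of these data known. Alternatives changed the pseudocount (0.1 and 5), the minimum (none and 5 FPKM), the scaling, the variance model, the replicate block and the libraries used.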

Additional observations from a re-analysis of the deposited data

How the results depend on the processing

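The directions of Fcgr1, Fcgr3, Fcgr4, Fcer1g and Fcgrt held in all 13 alternatives. No call did, as Fcgr4 passed in 12 of the 13 and Fcgr3 and Fcgrt in 5 each. Of the 6 receptors 3 passed, against 1 without a minimum FPKM, 1 after quantile normalization, 1 with eBayes without trend, 5 with robust eBayes, 1 with the replicate block, and 0 to 2 without 1 library. Over all genes 983 passed, against 504 without a minimum, 588 without trend, 637 with the replicate block, and 159 to 546 without 1 library. Of the pathway genes 33 passed, against 16 without a minimum, 15 without trend, 20 with the replicate block, and 8 to 21 without 1 library. The lowest counts came without replicate 1 labelled Sema6D-/-. Without that library 2 values changed sign, Fcgr2b to -0.041 (0.0799 with all libraries, up to 0.201 without replicate 2 of that label) and the log2 difference of the ratio of summed activating receptors to Fcer1g to -0.00217 (0.0697 with all libraries, up to 0.142 without another library). The causes were not tested. The numbers 1 and 2 in the titles are not said to pair samples, and deviations of same-numbered libraries from their group means had a correlation of -0.0183 over 10115 genes. With 2 libraries per label and estimated depths near 9000000 fragments, Fcgrt rests on the fewest fragments of the 6 genes in every library. The leave-one-out fits assume that the lone library varies like the pair.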
